A study of Mus musculus with 18 samples.

Results

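Metaphase II (MII) oocytes were compared with oocytes from primary follicles in the sham group, by bulk RNA sequencing. The comparison was chosen by the labels of the libraries and used 6 of the 18 libraries of the series, 3 of MII oocytes and 3 of oocytes from primary follicles. All came from mice of the cross C57Bl/6j x CBA/J, were marked as in vivo material and carried the treatment label sham. The other libraries were from primordial follicles and from a treatment called NTY, which the labels do not explain. The 6 NTY libraries of the same stages, 3 of each, serve below as a repeat of the comparison in other samples.

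A primary follicle holds a small oocyte, arrested in prophase of the first meiotic division, inside a single layer of cuboidal granulosa cells. The oocyte then grows, builds the zona pellucida that will bind sperm, and stores mRNAs and proteins for the early embryo. At ovulation it resumes meiosis and stops again at metaphase of the second division. Transcription is silent by then, and stored mRNAs are translated or degraded on schedule.

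The library method changed together with the stage. By the labelled protocol, RNA of cells cut out by laser was pooled over the caps of a stage, amplified with the Ovation PICO system and made into libraries with TruSeq RNA Access, which captures coding sequence. For oocytes that were collected whole the protocol names Smart-seq II, which primes cDNA from poly(A) tails. Microdissection was assigned to the primary follicle libraries and collection to the MII libraries, as the shared protocol text implies. Stage and method therefore cannot be told apart, and each difference given below is one of stage plus method. Values are shares of a library's own counts, written as CPM, the usual scale for a gene's count relative to the library total, and the labels do not say whether replicates came from separate animals, so that p-values may measure technical spread only.

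The primary libraries held 22572216 to 23930436 counts and the MII libraries 8898672 to 9978830. Counts of 3 reads, the floor used for genes without a read, were worth 0.125 to 0.133 CPM and 0.301 to 0.337 CPM. Across 15848 protein-coding genes with a read in any of the 6 libraries, Spearman's rho was 0.920 to 0.944 between MII libraries, 0.706 to 0.825 between primary libraries and 0.403 to 0.497 between the stages. Primary replicate 2 stood apart from the other primary libraries. It had the fewest genes with a read and rho of at most 0.709 with the others, and it held nearly all reads of the epithelial keratin Krt19, with 0, 1854 and 0.0427 CPM in primary replicates 1, 2 and 3. Values of single libraries are given in this order throughout. MII replicate 1 held far more mitochondrial mRNA than the other MII libraries. Counts within each gene list are given with and without these libraries where that moves them.

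The labelled cell type was checked against oocyte markers. All 3 primary libraries held reads of the egg coat genes Zp1, Zp2 and Zp3, of the growth factors Gdf9 and Bmp15 and of the germ cell helicase Ddx4, at 127, 165 and 45.8 CPM. Figla, a regulator of the egg coat genes, was at 0.627, 0.0443 and 0.214 CPM in the primary libraries and 0.209, 1.00 and 0.562 CPM in the MII libraries, and was too low to test. Dazl, a germ cell RNA-binding protein, was at 343, 0.177 and 133 CPM in the primary libraries, so it was nearly missing from primary replicate 2, and at 720.0, 663 and 679 CPM in the MII libraries. The primary libraries also held markers of granulosa cells and stroma, described below, and the MII libraries held less of these. Summed over each list, the primary mean was 318 CPM for 10 egg coat and secreted factor genes. It was 2658 CPM for 16 granulosa genes and 4425 CPM for 10 stroma genes. The primary libraries thus held oocyte and somatic markers together. The part of this mixture in the differences below was not tested.

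Of 13139 genes tested, 4610 (35.1%) were called higher in MII oocytes and 2044 (15.6%) lower, at an adjusted p under 0.05 in edgeR's quasi-likelihood test. All p-values of single genes below are from this test, adjusted by Benjamini-Hochberg over all genes tested. The median log2 ratio of MII over primary was 1.20 over all genes tested. It was 0.59 with TMM scaling and 0.90 with RLE scaling, and the share of the calls that were higher in MII was 69.3%, 63.0% and 65.8% under the 3 scalings. On ranks within libraries that share was 53.6%, and with at least 10 counts in every library it was 37.9%. Among the 11264 protein-coding genes tested, the main test called 3025 higher and 1972 lower, with a median log2 ratio of 0.47. All lists below but the mitochondrial and long non-coding ones hold protein-coding genes only. Their single ratios, medians and counts of calls should be read against these protein-coding values.

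**Figure D1:**
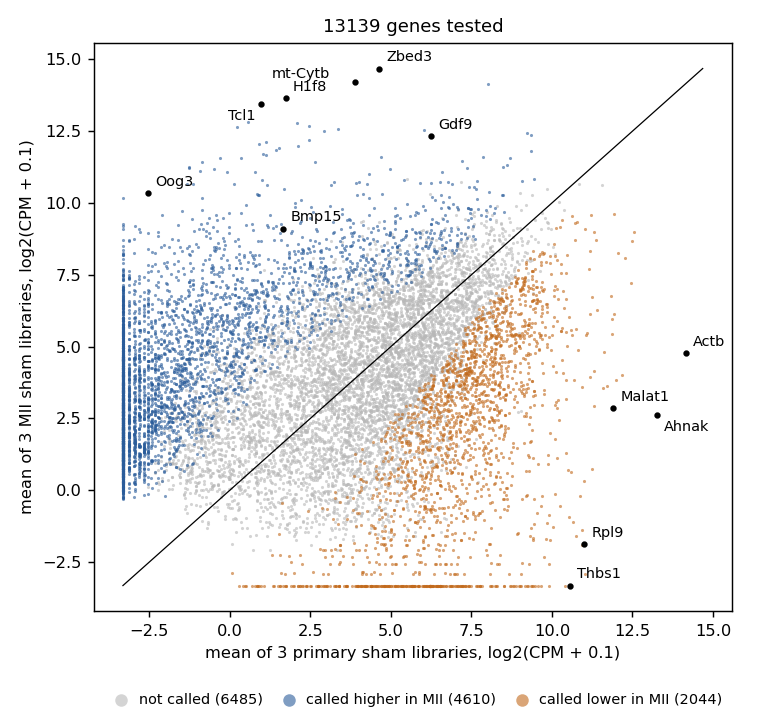
Mean share of counts of each of the 13139 genes tested, as log2(CPM + 0.1), in the 3 primary sham libraries (horizontal axis) and the 3 MII sham libraries (vertical axis), with the line of equal shares. Blue points are the 4610 genes called higher in MII, orange points the 2044 called lower, and the genes stacked on the left and bottom edges had few or no counts in 1 stage.

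The 10 protein-coding genes with the highest mean share were different in the 2 stages. In the primary libraries they were Actb, Ahnak, Eif4g2, Usp9x, Son, Ubb, Ppia, Hnrnpa1, Pabpc1 and Ankrd17, a set of genes used by most cells. In the MII libraries they were Zbed3, mt-Cytb, Spin1, H1f8, Tcl1, Bcl2l10, E330034G19Rik, E330021D16Rik, Btg4 and Slbp. All 20 were called, each in the direction of the stage that it led. They were picked by their share in these same libraries, which favours such a call, so this is no separate support. Of all 11264 protein-coding genes tested, 3025 were called higher in MII oocytes and 1972 lower.

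Actb, the gene of beta-actin, was at 16048, 19886 and 18631 CPM in the primary libraries and at 26.1, 29.1 and 26.5 CPM in the MII libraries. It ranked above all other protein-coding genes in each primary library and stood at percentile 81.0, 80.3 and 80.2 of them in the MII libraries. Its share was 668-fold lower in MII oocytes (log2 ratio -9.38, SE 0.34, adjusted p = 0.000133), and the groups were far apart. Ahnak, a very large scaffold protein, fell from 9463, 15761 and 4203 CPM to 5.95, 4.01 and 8.20 CPM (adjusted p = 0.000745). Ubb, a polyubiquitin gene, fell less, 18.05-fold (adjusted p = 0.000961).

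Tcl1, a cofactor of the kinase AKT that is abundant in eggs, took the opposite course. It was at 2.05, 1.64 and 1.84 CPM in the primary libraries and at 11486, 10536 and 11702 CPM in the MII libraries, 6105-fold higher with little spread in either stage (log2 ratio 12.57, SE 0.40, adjusted p = 0.000107). Spin1, a chromatin reader that is abundant in eggs, was already at 327, 41.5 and 404 CPM in the primary libraries and rose 70.5-fold (adjusted p = 0.00430). Bcl2l10, an anti-apoptotic member of the BCL2 family, was at 1.09, 0.177 and 2.90 CPM and 9214, 5608 and 6979.8 CPM (adjusted p = 0.00176). Usp9x, a deubiquitinase, was the reverse of Spin1, with a high share in the primary libraries and a lower but not small share of 294, 477 and 441 CPM in the MII libraries.

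Egg coat and secreted factor genes were higher in MII oocytes or were not called. Of 10 such genes, all tested, 6 rose, none fell and 4 were not called, with a median log2 ratio of 4.41. The summed share went from 318 ± 33.8 CPM to 8347 ± 1038 CPM (mean ± SD, n = 3). Zp1 and Zp2, 2 of the 3 mouse genes on this list for proteins of the zona pellucida, were among those not called. Zp1 was at 34.5, 115 and 68.7 CPM in the primary libraries and 64.6, 98.1 and 86.1 CPM in the MII libraries, so the groups overlapped (adjusted p = 0.837). For Zp2 the values were 17.5, 11.6 and 14.7 CPM and 18.3, 66.9 and 55.0 CPM (adjusted p = 0.146). Zp3, the third coat gene, was at 22.6, 26.5 and 33.1 CPM and 191, 111 and 242 CPM without overlap, and rose 6.61-fold (adjusted p = 0.00910, and 0.0672 without MII replicate 3). Per length, in TPM, Zp3 was at 328, 237 and 499 in the MII libraries against 74.0, 140.3 and 119 for Zp1 and 15.2, 69.6 and 55.1 for Zp2.

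The growth factors by which the oocyte signals to its granulosa cells rose as well. Gdf9 was at 87.0, 46.8 and 94.2 CPM in the primary libraries and at 4458, 5421 and 5657 CPM in the MII libraries, a 68.1-fold rise (log2 ratio 6.09, SE 0.44, adjusted p = 0.000745). Bmp15, the partner of Gdf9 in the same protein family, was at 3.47, 1.51 and 4.14 CPM and 493, 539.7 and 623 CPM, a 182-fold rise (adjusted p = 0.00103). Both genes had their lowest value in primary replicate 2. Bmp6, a related growth factor, was not called, with 61.3, 108 and 107 CPM and 72.9, 70.5 and 81.2 CPM. Oosp1 and Oosp3, genes of oocyte-secreted proteins, also rose. Oosp1 went from 0.919, 0.487 and 1.54 CPM to 1601, 1304 and 1982 CPM and Oosp3 from 0.0836, 0 and 0.0427 CPM to 476, 506 and 642 CPM. Fgf8, a ligand for the cells around the oocyte, was at 56.5, 7.84 and 27.6 CPM and 3.55, 6.61 and 3.71 CPM and was not called in the comparison of all 6 libraries (adjusted p = 0.0690). Fgf8 was called lower without primary replicate 2 (adjusted p = 0.0113) and with TMM scaling (adjusted p = 0.0328).

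The promoters of Zp3 and Bmp15, 2 egg coat and secreted factor genes that rose, are shown as examples of a search for the E-box letters CANNTG. RefSeq windows existed for 5 of the 10 genes of the list. The letters, which read the same on both strands, occurred in the 250 bases before the start in all 5, against 66.2% of 32851 windows of all genes. The sequences are the 150 bases just before the RefSeq start, on build GRCm38.p6, 5′ to 3′ on the gene's strand, with CANNTG in capitals. Zp3 was read at chr5:135979955-135980104 on the plus strand and Bmp15 at chrX:6320725-6320874 on the minus strand. The matches began 134 and 55 bases before the start of Zp3, and the 150 bases of Bmp15 held none. A match is a description of the letters only.
Zp3: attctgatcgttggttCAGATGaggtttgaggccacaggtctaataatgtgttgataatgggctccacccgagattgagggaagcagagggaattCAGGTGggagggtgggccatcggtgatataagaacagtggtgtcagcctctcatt
Bmp15: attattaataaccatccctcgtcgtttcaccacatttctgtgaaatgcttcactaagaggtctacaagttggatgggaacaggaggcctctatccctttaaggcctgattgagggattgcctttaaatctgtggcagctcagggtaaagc

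The subcortical maternal complex rose, although the call of its gene Khdc3 was not stable. It is a protein assembly under the egg's membrane that the early embryo needs, and all 8 genes of the list, tested in full, were called higher. The summed share was 94.5, 84.0 and 90.5 CPM in the primary libraries and 35941, 26401 and 24538 CPM in the MII libraries, a 323-fold difference without overlap. Most of the MII sum was Zbed3, the leading gene of the MII libraries, which went from 26.4, 16.5 and 30.7 CPM to 34283, 22604 and 21947 CPM (log2 ratio 10.06, SE 0.49, adjusted p = 0.000560). The other genes had smaller ratios. Nlrp5, known as MATER, was at 26.2, 24.0 and 20.5 CPM and 133, 634 and 454 CPM, and Tle6 at 7.69, 6.16 and 7.35 CPM and 179, 208 and 194 CPM, 17.3-fold and 27.4-fold differences. Padi6, an enzyme-like protein of the egg's cytoplasmic lattices, was 11.8-fold higher and Ooep 23.6-fold higher. Khdc3, known as FILIA, was the least certain, since the MII libraries held 51.3, 3.71 and 20.9 CPM (adjusted p = 0.0406, and 0.0654 with TMM scaling). Khdc3 was not called in 9 of 11 alternatives, among them each library left out (adjusted p = 0.0528 to 0.150). In all 3 primary libraries every one of these 8 genes had more than 3 counts, so the complex was detected at low shares there.

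**Figure D2:**
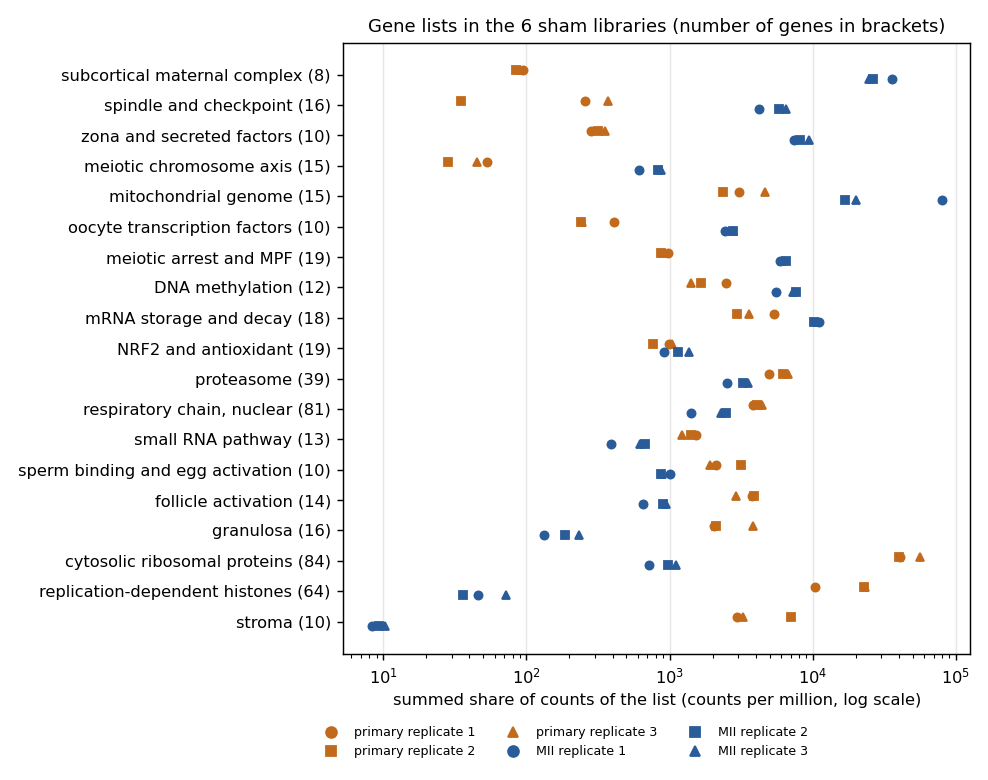
Summed share of counts of 19 gene lists in each sham library, in CPM on a log axis, with the number of genes in brackets; orange symbols are the 3 primary libraries and blue symbols the 3 MII libraries. From the subcortical maternal complex down to mRNA storage the MII libraries lie higher without overlap, the NRF2 list overlaps, and from the proteasome down to stroma the MII libraries lie lower without overlap.

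Linker histone and chromatin partner genes went in both directions. H1f8, the oocyte form of the linker histone, was at 3.64, 0.709 and 5.34 CPM in the primary libraries and 12099, 9885 and 16586 CPM in the MII libraries, 3983-fold higher (log2 ratio 11.96, SE 1.03, adjusted p = 0.00109). The somatic linker histone genes H1f2 and H1f4 fell, H1f2 from 22.3, 23.3 and 34.98 CPM to 3.45, 1.10 and 1.24 CPM (adjusted p = 0.0179) and H1f4 from 41.7, 9.17 and 16.2 CPM to 0.209, 0.701 and 0 CPM (adjusted p = 0.0190). Neither was called with the replicate block (adjusted p = 0.125 for H1f2 and 0.0620 for H1f4) or without MII replicate 3 (0.111 and 0.0586), nor H1f2 without MII replicate 2 (0.110) and H1f4 without MII replicate 1 (0.0923). H3f3b, 1 of the 2 genes of the replacement histone H3.3, rose from 489, 549 and 927 CPM to 3213, 3299 and 4262 CPM (adjusted p = 0.00430). H3f3a, the gene that encodes the same protein, fell from 740.1, 782 and 640.1 CPM to 37.3, 50.1 and 190.0 CPM (adjusted p = 0.0127). Npm2, the nucleoplasmin of the egg, was at 21.02, 10.4 and 20.3 CPM and 42.4, 72.6 and 55.9 CPM and was not called. Of the list's 9 genes, 2 rose, 5 fell and 2 were not called, beside 3025 higher and 1972 lower of 11264 protein-coding genes.

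Oocyte transcription factor genes moved less uniformly. Of 10, 7 could be tested, of which 3 rose, 1 fell and 3 were not called, beside 3025 higher and 1972 lower of 11264 protein-coding genes. Nobox, a homeobox factor of early oocytes, was at 2.17, 1.37 and 2.69 CPM and 62.7, 190.0 and 136 CPM (adjusted p = 0.00430). Obox5, of the Obox homeobox family, held most of the list's MII share, with 0.334, 0.487 and 0.128 CPM in the primary libraries and 2269.7, 2455 and 2559 CPM in the MII libraries (adjusted p = 0.000674). Lhx8, a factor of primordial and primary oocytes, was at 61.6, 33.3 and 36.8 CPM and 24.2, 42.4 and 28.5 CPM with overlapping groups (adjusted p = 0.633). Yy1, a factor expressed in most cells, fell 29.8-fold (adjusted p = 0.00430). Tbpl2, the oocyte form of the TATA-binding protein, was at 147, 0 and 0 CPM in the primary libraries, so its primary level rests on 1 library.

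Of 18 genes of mRNA storage and mRNA decay, all tested, 4 rose, 4 fell and 10 were not called. Over all 11264 protein-coding genes tested, 3025 rose and 1972 fell. The median log2 ratio of the list was 0.19, against 0.47 over those protein-coding genes. The risers included Btg4, the adaptor that brings the CCR4-NOT deadenylase to maternal mRNAs, at 1.55, 0.0886 and 1.58 CPM and 6266, 6207 and 6768 CPM (5984-fold, adjusted p = 0.00164). Cnot7, a catalytic subunit of that deadenylase, rose 7.92-fold from 221, 199 and 154 CPM (adjusted p = 0.00232). Zar1 and Zar1l, genes of egg RNA-binding proteins, were the other risers. Ybx2, known as MSY2, the main protein that packages stored mRNA, fell from 416, 491 and 445 CPM to 6.89, 7.52 and 7.75 CPM, 61.0-fold with tight values in both stages (adjusted p = 0.000913). Tut4, which adds uridines to short poly(A) tails, fell from 483, 222 and 392 CPM to 0, 0.501 and 1.12 CPM (adjusted p = 0.00430). Its paralog Tut7 was at 8.19, 13.7 and 48.0 CPM and 73.8, 83.9 and 75.7 CPM, higher in MII oocytes without overlap, and was called without primary replicate 3 (adjusted p = 0.0281) but not in the comparison of all 6 libraries (adjusted p = 0.150). Cpeb1, which controls translation by lengthening tails, was at 512, 315 and 324 CPM and 133, 207 and 172 CPM (adjusted p = 0.0588). Zfp36l2 and Lsm14b completed the genes that fell.

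Genes of meiotic arrest and of the M-phase kinase were higher in MII oocytes where they were called. Of 18 tested genes of 19, 10 rose, none fell and 8 were not called, with a median log2 ratio of 2.94. The summed share went from 915 ± 58.3 CPM to 6191 ± 280.2 CPM (mean ± SD, n = 3). Ccnb1, cyclin B1, was at 17.3, 0 and 8.89 CPM and 1422, 1706 and 1642 CPM (adjusted p = 0.0157, and 0.0559 without primary replicate 3), with no read in primary replicate 2. Its kinase partner Cdk1 was at 0.251, 47.6 and 11.6 CPM and 73.2, 41.1 and 37.9 CPM and was not called. Mos, the kinase upstream of MAP kinase that holds the egg in metaphase, was at 14.2, 1.95 and 23.9 CPM and 630.2, 233 and 638 CPM, a 37.5-fold rise (adjusted p = 0.00614). Fbxo43, known as EMI2, which blocks the anaphase-promoting complex during that arrest, was all but missing from the primary libraries, with 0.209, 0 and 0.128 CPM, and at 479, 457 and 438 CPM in the MII libraries (adjusted p = 0.00165). Wee2, the oocyte kinase that restrains Cdk1, rose 238-fold (adjusted p = 0.00430). Ccnb3, cyclin B3, had no read in any primary library and 3.13, 15.5 and 15.4 CPM in the MII libraries, at least 23.6-fold higher than the floor. Pde3a, Plk1, Pkmyt1, Map2k1 and Cdc20 also rose, from 2.24-fold for Map2k1 to 24.9-fold for Cdc20. Map2k1 was not called with TMM or RLE scaling (adjusted p = 0.296 and 0.349).

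Spindle and checkpoint genes behaved in the same way, with 8 of 16 tested genes higher, none lower and a median log2 ratio of 3.61. Over all 11264 protein-coding genes tested, 3025 were higher and 1972 lower. Pttg1, securin, the inhibitor of chromosome separation, was at 1.38, 1.33 and 2.14 CPM and 1298, 2159.8 and 3084 CPM (1351-fold, adjusted p = 0.000689). Aurka, the spindle pole kinase, was at 1.63, 0.0443 and 0.940 CPM and 195, 236 and 208 CPM, and the meiotic kinase Aurkc at 6.52, 0 and 10.7 CPM and 209, 219 and 217 CPM (adjusted p = 0.00430 and 0.0451, and 0.0597 for Aurkc with TMM scaling). Bub1b, a checkpoint kinase, reached 1152, 1384 and 1269 CPM from 17.3, 0.266 and 34.7 CPM (adjusted p = 0.0134). Primary replicate 2 held the fewest reads of this group, with 7 of the 16 genes at 3 counts or fewer, against 1 and 0 in the other primary libraries. Mad2l1 was at 7.31, 0 and 51.1 CPM and 579, 567 and 536 CPM and was not called (adjusted p = 0.0779). Without primary replicate 2, it passed (adjusted p = 0.00884) and 11 genes of this list were called higher.

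Genes of the meiotic chromosome axis, which act during prophase, were low in the primary libraries. Of 15 genes, 7 could be tested, of which 4 rose and none fell, beside 3025 higher and 1972 lower of 11264 protein-coding genes. Syce2, a component of the synaptonemal complex, was at 1.17, 0.133 and 0.342 CPM in the primary libraries and 381, 473 and 463 CPM in the MII libraries (adjusted p = 0.00214). Sycp3, a lateral element protein of the same complex, was at 0.209, 0 and 0.940 CPM and 52.3, 74.6 and 129 CPM (adjusted p = 0.0104). The cohesin gene Smc1b was at 40.6, 19.1 and 41.0 CPM and 9.71, 31.2 and 34.2 CPM with overlapping groups. Spo11, which makes the meiotic breaks, had no read in any of the 6 libraries.

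DNA methylation genes rose or were not called. Of 12 genes, all tested, 6 were higher, none lower and 6 not called, with a median log2 ratio of 2.13. Dppa3, known as STELLA, which protects methylation in the egg, was at 1.71, 0.399 and 1.37 CPM and 2167, 3230.2 and 3662 CPM, a 2604-fold rise (adjusted p = 0.000745). Uhrf1, which guides the maintenance enzyme, was at 8.61, 15.7 and 12.05 CPM and 215, 536 and 328 CPM, and the maintenance enzyme gene Dnmt1 at 181, 146 and 106 CPM and 485, 447 and 347 CPM (29.7-fold and 2.96-fold). Dnmt1 was not called with TMM or RLE scaling (adjusted p = 0.117 and 0.142). Zfp57, which keeps imprints methylated, rose 233-fold, and the de novo enzyme gene Dnmt3b rose from 1.46, 0.0886 and 0.128 CPM to 70.3, 65.3 and 95.2 CPM. Dnmt3a, the de novo enzyme of the growing oocyte, was at 301, 524 and 206 CPM and 132, 329 and 239.7 CPM (adjusted p = 0.433). Tet3, the oxidase of the zygote, was high in both stages, at 1378, 628 and 762 CPM and 1537, 1309.6 and 1499 CPM (adjusted p = 0.210).

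Of 12 tested small RNA genes of 13, 3 rose, 3 fell and 6 were not called. Over all 11264 protein-coding genes tested, 3025 rose and 1972 fell. Ago1 and Ago2, which bind microRNAs and short interfering RNAs, fell 197-fold and 15.1-fold, Ago1 from 322, 488 and 417 CPM to 1.04, 3.51 and 1.69 CPM (adjusted p = 0.00151). Dicer1, which cuts their precursors, fell 2.75-fold (adjusted p = 0.0491, and 0.0610 among protein-coding genes alone). The risers, Piwil1, Tdrd1 and Pld6, belong to the piRNA pathway. Piwil1 was at 0.209, 0 and 0.0854 CPM and 119, 109.9 and 102 CPM (adjusted p = 0.00430).

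Genes of sperm binding and egg activation had a lower summed share in the MII libraries, 1014, 869 and 878 CPM against 2119.6, 3139 and 1912 CPM. Of 9 tested genes of 10, 2 rose and 4 fell, beside 3025 higher and 1972 lower of 11264 protein-coding genes. The risers were Izumo1r, the sperm receptor known as JUNO, at 3.97, 0.753 and 2.05 CPM and 15.3, 20.9 and 20.7 CPM (adjusted p = 0.0419, and 0.0677 with TMM scaling), and Astl, the protease that hardens the zona after fertilization, at 30.3, 1.33 and 13.2 CPM and 204, 159.8 and 258 CPM (adjusted p = 0.0270). Neither was called without primary replicate 3 or without any 1 MII library (adjusted p = 0.0721 to 0.146 for Izumo1r and 0.0598 to 0.0821 for Astl). Itpr1, the calcium release channel of egg activation, fell from 579, 1012 and 418 CPM to 28.5, 90.0 and 50.8 CPM (adjusted p = 0.00433). Trpm7 and Cacna1h, calcium entry channels, and the tetraspanin Cd81 also fell. Cd9, the tetraspanin needed for sperm fusion, was at 207, 0.399 and 110.0 CPM and 8.46, 16.4 and 29.4 CPM and was not called, but fell without primary replicate 2 (adjusted p = 0.00964).

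Genes of the pathway that awakens resting follicles fell in MII oocytes or were not called. TSC1 and FOXO3 hold the primordial oocyte at rest, and AKT and mTOR act against them. Of 14 genes, all tested, 6 fell, none rose and 8 were not called, beside 3025 higher and 1972 lower of 11264 protein-coding genes. The median log2 ratio was -1.53, against 0.47 over all protein-coding genes tested. Foxo3 was at 829, 833 and 789 CPM in the primary libraries and 147, 215 and 326 CPM in the MII libraries, 3.57-fold lower without overlap (log2 ratio -1.83, SE 0.42, adjusted p = 0.0102). Mtor was at 302, 259.9 and 226 CPM and 13.8, 42.0 and 23.7 CPM (adjusted p = 0.00472). Mtor fell 9.91-fold and Tsc1 9.504-fold, so genes with opposed roles in the pathway fell alike. Kit, the receptor through which granulosa cells act on the oocyte, was at 298, 3.90 and 50.9 CPM and 37.4, 140.2 and 111 CPM, with a primary spread wider than the difference between stages (adjusted p = 0.871). These genes are also active in somatic cells, whose markers fell too, and that part in the result was not tested.

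Granulosa cell markers were present in the primary libraries and mostly lower in the MII libraries. In bulk samples, fewer cells of a type and less RNA per cell cannot be told apart. The 16 genes of the list summed to 2036, 2104 and 3834 CPM in the primary libraries and 132, 185 and 233 CPM in the MII libraries. Of 12 tested, 8 fell, 3 rose and 1 was not called, and 5 of the 8 were called lower without MII replicate 1. Foxl2, the transcription factor that keeps granulosa identity, was at 149, 357 and 154 CPM and had no read in any MII library, at least 442-fold lower than in the primary libraries (adjusted p = 0.00360). Wt1 and the receptor Amhr2 also had no read in the MII libraries, against 391, 1014 and 562 CPM and 29.2, 49.2 and 82.1 CPM in the primary libraries. Gja1, the gap junction protein between granulosa cells, fell from 754, 199.8 and 1142 CPM to 0.940, 0.1002 and 0 CPM (adjusted p = 0.00430). Amh, a product of growing follicles, was at 1.67, 0.487 and 12.8 CPM in the primary libraries. Cyp19a1, aromatase, went the other way, from 0, 0 and 0.299 CPM to 34.9, 65.6 and 68.7 CPM (adjusted p = 0.00896), as did Esr2 and Fshr, with Fshr at no more than 4.71 CPM. All 7 cumulus markers, genes that expanding cumulus cells switch on at ovulation, stayed at or under 3.34 CPM in every library and none was tested.

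Stroma markers were far lower in the MII libraries. The 10 genes summed to 2977, 7034 and 3264 CPM in the primary libraries and 8.35, 9.32 and 10.3 CPM in the MII libraries, a 474-fold difference. Of the 10, 9 fell and 1, Dcn, was not called. In 5 of them there was no read in any MII library, so the median log2 ratio of -10.74 rests on fitted values, and it was -7.56 with those genes set at the floor of 3 counts. Col1a2, the alpha 2 chain of type I collagen, was at 1076, 1773 and 1201 CPM and at 0 in every MII library, at least 3191-fold lower (adjusted p = 0.000961). Vim, vimentin, was at 485, 871 and 497 CPM and also at 0 in the MII libraries. Col1a1 was at 1081, 3049 and 1008 CPM and 0, 0.701 and 0 CPM. Primary replicate 2 had the highest value for most of these genes, as for Sparc, a matrix protein, at 76.8, 627 and 78.8 CPM. The count of genes that fell was 9 without that library and 7 without MII replicate 1. The 5 endothelial markers summed to 0.627, 42.3 and 0.256 CPM in the primary libraries and 127, 173 and 138 CPM in the MII libraries, higher in MII oocytes without overlap. Pecam1, an adhesion gene of endothelium, rose, at 0, 0.222 and 0 CPM and 106, 136 and 122 CPM (adjusted p = 0.00430), as did the endothelial receptor gene Tek, from no read to 9.29, 25.2 and 10.5 CPM. Kdr, the main receptor of endothelium for VEGF, made up nearly all of the sum in primary replicate 2, at 0.251, 42.0 and 0 CPM and 11.5, 12.3 and 5.51 CPM, and was not called (adjusted p = 0.859), although it was called higher in MII oocytes without that library (adjusted p = 0.0196). The defining markers Cdh5 and Emcn were at or under 0.376 CPM in all 6 libraries. The 8 blood and immune genes summed to 40.8, 0 and 0.214 CPM and 2.71, 5.51 and 1.46 CPM with overlap. Nearly all of the sum in primary replicate 1 was Hba-a1, an alpha-globin gene, and the only gene of the list that could be tested was the macrophage gene Cd68, which rose. Ptprc and Adgre1 had no read in any of the 6 libraries. Of the theca, smooth muscle and surface epithelium genes, Nr5a1, Acta2 and Krt8 fell and no gene rose, among 3, 2 and 2 tested. Krt8 was highest in primary replicate 2, at 67.4, 821 and 146 CPM, and without MII replicate 1 it was not called.

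**Figure D3:**
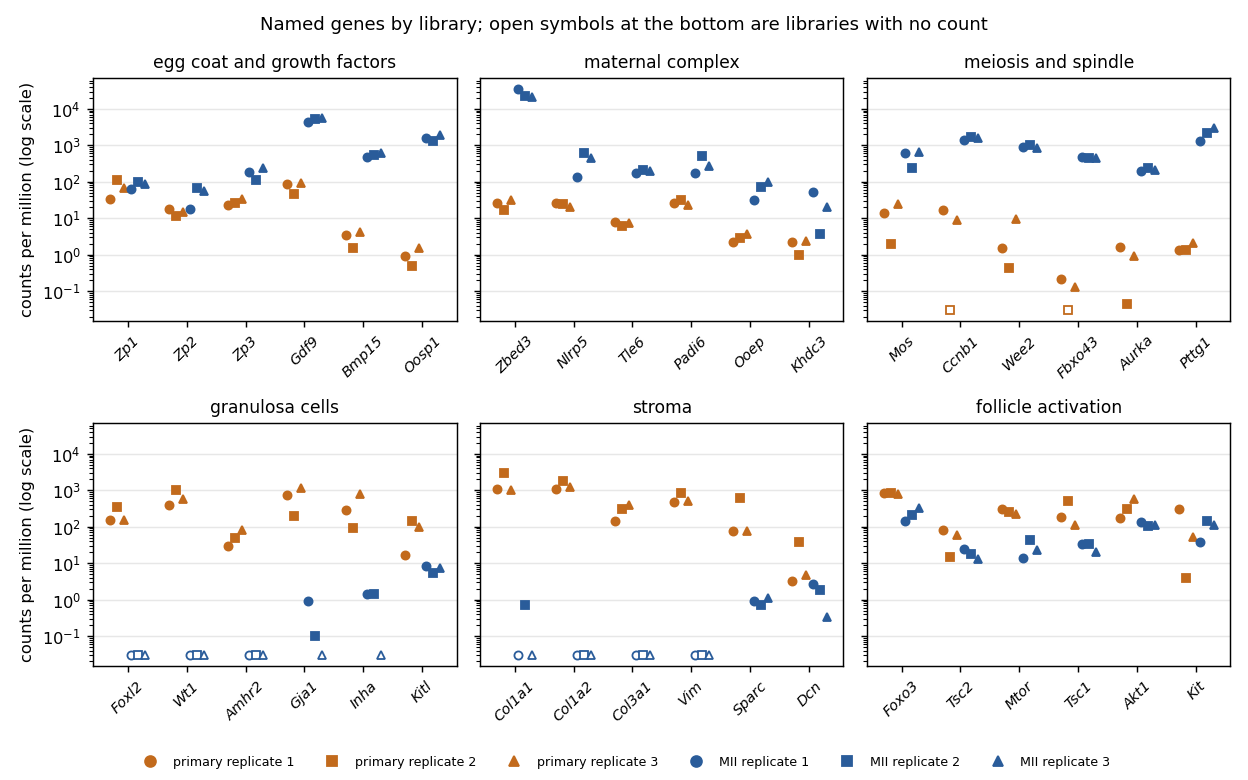
Share of counts of 36 named genes in each sham library, in CPM on a log axis shared by the 6 panels; orange symbols are primary and blue symbols MII libraries, and open symbols at the bottom mark a library with no count. Genes of the egg coat, maternal complex and meiosis lie higher in MII except Zp1, which overlaps. The granulosa and stroma markers lie lower in MII or have no count there, and Kit and Tsc2 overlap.

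Cytosolic ribosomal protein genes made up a large part of the primary libraries and little of the MII libraries. The 84 genes summed to 40808, 39714 and 56319 CPM in the primary libraries and 719, 969 and 1108 CPM in the MII libraries, 48.9-fold lower. Of 81 tested, 72 fell, 1 rose and 8 were not called, with a median log2 ratio of -6.69. Both subunits took part, with 26 of 32 tested small subunit genes and 45 of 48 tested large subunit genes lower. Rpl9 was at 1575, 1201 and 3365 CPM and 0.522, 0 and 0 CPM, and Rpsa at 1943, 1131 and 2823 CPM and 0.104, 0.301 and 0.450 CPM (adjusted p = 0.00256 and 0.000689). The gene that rose was Rps27l, a paralog of Rps27, at 3.22, 0.399 and 6.75 CPM and 182, 264 and 361 CPM (adjusted p = 0.00472). Ribosomal protein genes have many processed pseudogenes, so the reads of single members are uncertain.

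Replication-dependent histone genes, whose mRNAs end in a stem-loop in place of a poly(A) tail, were also lower in MII oocytes. The 64 genes summed to 10413, 22786 and 22997 CPM in the primary libraries and 46.2, 36.1 and 72.5 CPM in the MII libraries, 363-fold lower. Of 47 tested, 43 fell, 1 rose and 3 were not called. In 23 of the 47 no MII library had a read, and with these at the floor of 3 counts the median log2 ratio was -8.23 in place of -12.08. All 13 tested genes with H2bc symbols fell. H2bc15, a histone H2B gene, was at 517, 1312 and 1040.5 CPM and at 0 in every MII library, at least 1533-fold lower (adjusted p = 0.00159). H2bc3 and H2bc9 were at 302, 1055 and 785 CPM and 543, 600.0 and 1142 CPM in the primary libraries and at 0 in the MII libraries. H2bc7 was uneven among the primary libraries, at 2.01, 1175 and 825 CPM. The gene that rose was H3c14, at 0, 0 and 0.0427 CPM and 9.40, 7.52 and 9.44 CPM. These genes are nearly identical to each other, so that reads could be divided among members or dropped. Slbp, the protein that binds the histone stem-loop, rose from 59.7, 23.7 and 114 CPM to 5834, 5575 and 6271 CPM, 89.6-fold (adjusted p = 0.00189).

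Promoters of 2 H2B genes are shown because this family fell together. RefSeq windows were found for 50 of the 64 genes, in 51 windows. In the 250 bases before the start, the letters CCAAT on either strand occurred in 84.3% of these and in 33.8% of the 32851 windows of all genes. TATAAA on either strand occurred in 47.1% and 12.4%, and the octamer ATTTGCAT on either strand in 25.5% and 1.6%. The 13 windows of genes with H2bc symbols all held CCAAT, and 53.8% held the octamer. The sequences are the 150 bases before the RefSeq start on GRCm38.p6, 5′ to 3′ on the gene's strand, with these 3 motifs in capitals on either strand. H2bc3 was read at chr13:23746584-23746733 on the plus strand and H2bc9 at chr13:23543445-23543594 on the minus strand. H2bc3 held CCAAT 3 times, and the octamer 90 bases and TATAAA 10 bases before its start. H2bc9 held CCAAT 146 and, on the other strand, 37 bases before its start.
H2bc3: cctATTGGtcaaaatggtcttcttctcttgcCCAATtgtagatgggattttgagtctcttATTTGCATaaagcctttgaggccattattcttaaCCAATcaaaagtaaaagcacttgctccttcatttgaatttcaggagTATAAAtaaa
H2bc9: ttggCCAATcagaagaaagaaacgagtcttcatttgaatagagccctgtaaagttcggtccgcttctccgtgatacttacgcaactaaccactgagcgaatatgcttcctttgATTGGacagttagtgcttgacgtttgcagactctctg

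Mitochondrial mRNAs rose while mitochondrial ribosomal RNAs were not called. The 13 protein-coding genes of the mitochondrial genome summed to 56.9, 24.8 and 146 CPM in the primary libraries and to 76937, 15819 and 18700 CPM in the MII libraries, and all 13 were called higher. The 2 ribosomal RNA genes summed to 2988, 2322 and 4477 CPM and to 2863, 1042 and 1376 CPM, with overlapping groups, and neither was called. mt-Cytb, cytochrome b, was at 12.5, 4.87 and 26.8 CPM and 38339, 8056 and 10589 CPM (adjusted p = 0.00229). mt-Co1, a subunit of cytochrome c oxidase, was at 13.04, 4.70 and 41.8 CPM and 4277, 1037 and 866 CPM (adjusted p = 0.00433). MII replicate 1 was the high library for each of the 13 genes, and without it all 13 were still called. mt-Atp8 and mt-Atp6 overlap on the genome and had nearly equal values, so their reads cannot be assigned to one or the other.

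Nuclear genes of the respiratory chain were mixed. Of 72 tested genes of 81, 16 rose, 17 fell and 39 were not called, with a median log2 ratio of -0.41. Over all 11264 protein-coding genes tested, 3025 rose and 1972 fell. The summed share of the list was 1.99-fold lower in MII oocytes. Without MII replicate 1 the counts were 9 higher and 6 lower. Atp5g1, Atp5g2 and Atp5g3, which encode the same ring subunit of ATP synthase, fell, Atp5g3 from 313, 237 and 751 CPM to 0.209, 1.90 and 1.80 CPM (adjusted p = 0.00406). Cox8a and Cox6b2, small subunits of cytochrome c oxidase, rose, Cox8a from 0.543, 1.73 and 1.20 CPM to 37.8, 122 and 119 CPM (adjusted p = 0.00430). Sdhc, a subunit of succinate dehydrogenase, rose 66.6-fold.

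Proteasome genes tended to be lower, with 14 of 34 tested genes lower, 1 higher and 19 not called, and a median log2 ratio of -1.65. Of the 6 ATPase subunits of the regulatory particle, 4 fell, and together they went from 949, 670 and 1236 CPM to 50.01, 170 and 164 CPM. Psmc2, 1 of these ATPases, was at 123, 38.1 and 206 CPM and 1.15, 2.51 and 2.47 CPM (adjusted p = 0.00430). Psmb5, a catalytic subunit of the core, fell from 38.2, 85.9 and 127 CPM to 1.46, 2.10 and 1.80 CPM (adjusted p = 0.00430). Psmd9, an assembly chaperone, was the gene that rose, from 4.30, 0.443 and 6.32 CPM to 104, 206 and 203 CPM (adjusted p = 0.00706).

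Antioxidant genes under the factor NRF2 showed little shift as a list, with 2 of 17 tested genes higher and 2 lower. Over all 11264 protein-coding genes tested, 3025 were higher and 1972 lower. The sums of the list overlapped, at 995, 766 and 1047 CPM and 912, 1148 and 1362 CPM. Prdx2, a peroxiredoxin, rose from 12.9, 15.9 and 10.5 CPM to 144, 257 and 253 CPM (adjusted p = 0.00430), and Nqo1, a quinone reductase, had no read in the primary libraries and 17.5, 26.1 and 27.1 CPM, at least 132-fold over the floor, in the MII libraries. Cat, catalase, and Gpx4 fell, but neither was called without MII replicate 1. Prdx1 was at 479, 276 and 285 CPM and 398, 445 and 629.9 CPM and was not called. Immediate early genes, which cells switch on within minutes of a stimulus, gave 1 call among 9 tested, Junb, at 0.501, 0.0443 and 0.214 CPM and 10.3, 12.5 and 16.0 CPM (adjusted p = 0.00906, and 0.0626 with the replicate block, where it was not called). Dusp1, of the same list, was at 6.52, 0.222 and 125 CPM and 353, 524 and 512 CPM, higher in MII oocytes without overlap, and was not called (adjusted p = 0.152). It was called higher without primary replicate 3 (adjusted p = 0.0184), with the replicate block (0.0344) and on log2(TPM + 1) (0.0320).

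Transcripts outside the coding genome differed strongly in kind. Protein-coding genes held 98.0%, 97.9% and 97.5% of the counts in the primary libraries and 95.1%, 94.9% and 95.1% in the MII libraries. Antisense genes, by the GENCODE class, went from 138, 191 and 80.6 CPM to 8957, 10162 and 9859 CPM, although strand is not stated for the counting, so that their reads and those of the partner gene cannot be told apart. Small nucleolar RNA genes went the other way, from 377, 559 and 1089 CPM to 9.604, 18.9 and 13.9 CPM. Malat1, a nuclear RNA that lacks an ordinary poly(A) tail, was at 4427, 3914 and 3143 CPM in the primary libraries and 3.65, 14.9 and 2.70 CPM in the MII libraries, 539.6-fold lower (adjusted p = 0.00169). Of the 7 long non-coding RNAs of the list that were tested, 4 fell and 1, Gas5, rose. Over all 13139 genes tested, coding or not, 4610 were higher and 2044 lower. The list does not stand for long non-coding RNAs in general. Genes of the GENCODE class lincRNA summed to 7163, 5775 and 7288 CPM in the primary libraries. In the MII libraries that class was higher, at 19775, 20325 and 20541.5 CPM. Neat1, the scaffold RNA of paraspeckles, was at 1.59, 1.28 and 2.43 CPM and had no read in the MII libraries.

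Called protein-coding genes with a mean of at least 100 CPM were ranked by their fitted log2 ratio. The 10 with the largest fitted ratios in favour of MII oocytes were Mbd3l2, Ptprr, Far2, Lgsn, Epsti1, Neurog3, Oog3, Selp, Ms4a1 and Oog1. Of these, 8 had no read in any primary library. Where a stage had no read the ratio rests on fitted values, so the order depends on the method. Mbd3l2 had a log2 ratio of 15.29 in the main fit and 8.50 on log2(TPM + 1), against 12.57 and 11.91 for Tcl1. Mbd3l2, of the methyl-CpG-binding domain family, was at 238, 303 and 377 CPM in the MII libraries, at least 1792-fold over the floor (adjusted p = 0.00155). Oog3 and Oog1 belong to an oocyte gene cluster of close copies, and Oog3 was at 0.0836, 0 and 0.128 CPM and 1376, 1229.6 and 1270.1 CPM. Selp and Ms4a1, better known as P-selectin of platelets and endothelium and as CD20 of B cells, were at 85.1, 111 and 178 CPM and 85.1, 140.5 and 147 CPM, while the leukocyte gene Ptprc had no read in any library. The 10 with the largest fitted ratios in favour of primary follicles were Thbs1, Col1a2, H2bc15, Ptch1, H2bc9, H2bc3, Npr2, H2bc7, Wt1 and Vim. None had a read in any MII library, so their order also rests on fitted values. Ptch1, the hedgehog receptor, was at 901, 781 and 755 CPM in the primary libraries. Npr2, the receptor by which granulosa cells keep the oocyte in arrest, was at 683, 325 and 1022 CPM.

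Coding length moved with the ratio. With genes in 4 bins of near equal size by longest coding length, the median log2 ratio was 1.62 in the shortest, up to 894 bases, then 1.11 and 0.36, and -0.84 in the longest, of 2382 bases and more. Across the 11264 protein-coding genes tested, Spearman's rho between coding length and log2 ratio was -0.20. The part of length in the results above was not tested, and genes are not independent replicates.

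The same comparison in the NTY libraries, which share no library with the sham comparison, gave 3531 of 10698 genes higher (33%) and 577 lower (5.39%) in MII oocytes. Of 5116 genes called in sham and tested in both, 96.6% had the same sign in NTY, against 84.7% of all 10390 genes tested in both. Of the 2963 genes called in both, 2947 had the same sign. Primary NTY replicates 2 and 3 carry the codes 2E and 2E2, and the labels do not say how they are related. For the subcortical maternal complex 7 of 8 genes were called higher in NTY, with sums of 23.3, 51.0 and 91.1 CPM and 30462, 19014 and 16385 CPM. Of the 15 mitochondrial genes 13 were called higher, 49 of 78 tested ribosomal protein genes lower and 18 of 29 tested histone genes lower. Other lists had different counts in the 2 treatments. Over all genes tested, fewer were called lower in NTY, 5.39% against 15.6% in sham. The NTY libraries also spread more, with common dispersions of 2.04 in NTY and 1.07 in sham. Of 32 proteasome genes tested in NTY, 5 were called higher and 3 lower, against 1 higher and 14 lower of 34 in sham. In the follicle activation list 1 of 14 genes was called higher and none lower in NTY, against none higher and 6 lower in sham. In the list of linker histone and partner genes 2 of 9 were called higher and none lower in NTY, against 2 higher and 5 lower in sham. The median log2 ratio in NTY and in sham was -1.38 and -1.65 for the proteasome list. It was -1.51 and -1.53 for the follicle activation list, and -0.83 and -1.93 for the linker histone list. Stroma markers summed to 20148, 6382 and 2461 CPM and 10.5, 7.28 and 0.462 CPM. Foxo3 was at 822, 1304 and 1063 CPM and 226, 472 and 194 CPM in NTY and was not called there (adjusted p = 0.0908), and Gdf9 was at 1.43, 41.9 and 98.0 CPM and 4408, 5926 and 3793 CPM (adjusted p = 0.0137).

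Whether the stage difference itself depended on the treatment was tested with 12 libraries. Of 14817 genes, 11 (0.0742%) differed, all with a higher ratio of MII over primary in NTY, so a call in 1 treatment and not in the other, as for Foxo3, does not by itself show a difference. The count was 5 with TMM scaling, 0 with RLE scaling and 0 without primary sham replicate 1 or without any 1 MII library, whereas DESeq2 called 559 higher and 233 lower. Ptprr was also called in sham and not in NTY. It had no read in the primary sham libraries, 0.0422, 1.07 and 133 CPM in the primary NTY libraries and 119.5, 164 and 251 CPM in the MII NTY libraries (adjusted p in NTY = 0.533), and the difference between treatments was not called (adjusted p = 0.194).

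**Figure D4:**
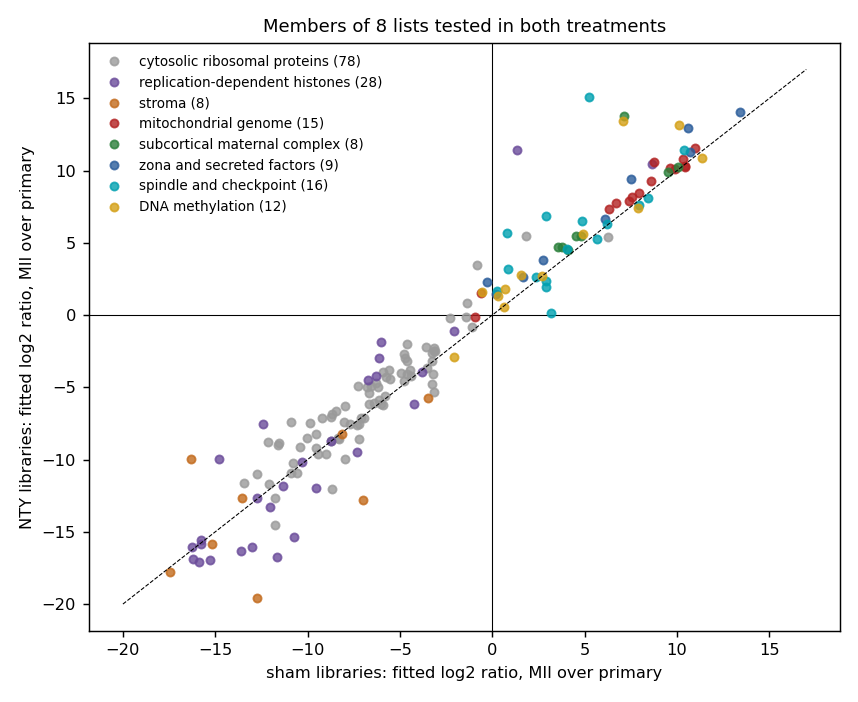
Fitted log2 ratio of MII over primary for members of 8 gene lists in the sham libraries (horizontal axis) and in the NTY libraries (vertical axis), with the number of genes tested in both and a dashed line of equal ratios. Ribosomal, histone and stroma genes lie mostly at the lower left, and mitochondrial, maternal complex and coat genes mostly at the upper right.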

How the data were processed

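Raw read counts for 53715 genes and TPM values for 28252 of them were deposited by the authors. The counts were not normalized. Per the labels, adapters were trimmed with Trim Galore 0.4.1, reads were placed on mm10 with TopHat2 and counted with featureCounts. The settings for strand and for reads of several genes are not given in the sources used here. Symbols came from the deposited TPM table, gene classes and coding lengths from the GENCODE M21 annotation (GRCm38), where 53620 of the identifiers were found, and promoter windows from RefSeq.

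Shares are counts divided by the library total. Stages were compared in the 6 sham libraries with the quasi-likelihood test of edgeR 4.0.16 (R 4.3.3, robust estimation, filterByExpr by group), scaled by library totals alone. Genes were called at a p of under 0.05 after Benjamini-Hochberg adjustment. The 6 NTY libraries of the same stages were fitted alone, and the difference of the 2 comparisons in all 12. Genes per library were compared by exact permutation, where 3 against 3 cannot go below p = 0.1. Alternatives were TMM and RLE scaling, DESeq2 1.42.0, voom with sample weights in limma 3.58.1, other filters, protein-coding genes only, a replicate block, log2(TPM + 1), ranks, an absolute log2 ratio of at least 1, all 18 libraries and each library left out. Runs of the list counts without primary replicate 2 or MII replicate 1 were added after seeing the data.

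The 28 gene lists and the comparison were chosen with earlier results of these data known. Genes could be named from the lists, as the 10 with the highest share in each stage, or as the 10 with the largest fitted log2 ratio in each direction. The last rule took protein-coding genes that were called, did not overlap and had a mean of at least 100 CPM. Some genes that this rule allows are not reported here. The floor for a gene without a read is 3 counts in a library, and floors cover counting error only.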

Additional observations from a re-analysis of the deposited data

Results flagged for a closer look

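The stage difference differed between treatments for 11 of 14817 genes in the test of the difference itself (edgeR, adjusted p under 0.05), and 1840 passed an unadjusted p under 0.05. In all 11 the 3 primary NTY libraries lay below the 3 primary sham libraries, with at most 2.66 CPM in any primary NTY library against at least 18.3 CPM in any primary sham library. The 11 were picked by a test on these same values, which favours such a separation, so it is no separate result. How many of the 14817 genes show it was not counted. Among the 11 are 2 proteasome genes. For Psmd7, a subunit of the regulatory particle, the log2 ratio was higher by 11.06 (SE 1.43, adjusted p = 0.0187) in NTY, with 273, 469.8 and 258 CPM in primary sham, 0.169, 0.0430 and 0.277 CPM in primary NTY, 136, 102 and 65.1 CPM in MII sham and 106, 107 and 119.7 CPM in MII NTY. For Psmb3, a core subunit, it was higher by 12.56 (SE 1.97, adjusted p = 0.0414), with 101, 247 and 66.0 CPM in primary sham, 0, 0 and 0.0395 CPM in primary NTY, 27.1, 80.2 and 86.3 CPM in MII sham and 75.8, 63.3 and 40.6 CPM in MII NTY. The cause was not tested.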

How the results depend on the processing

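Of 13139 genes, 4610 higher and 2044 lower in MII oocytes were called in sham. The higher count was 819 with at least 10 counts in every library, 2874 among protein-coding genes and 2958 with all 18 libraries in the fit. The lower count was 1340 and 684 under the first and last of these, and 1306 (without MII replicate 3) to 2952 (without primary replicate 2) with 1 library left out. For NTY the higher count of 3531 was 2188 with any count, 207 with at least 10 counts, 2130 among protein-coding genes, 2115 with the replicate block and 1820 on ranks. The lower count of 577 was 1811 with DESeq2, 347 with any count, 262 with at least 10 counts, 298 with the replicate block, 1541 on ranks, 957 with all 18 libraries and 195 (without MII NTY replicate 1) to 836 (without primary NTY replicate 2) with 1 library left out. For the difference between treatments the 11 genes with a higher ratio in NTY were 5 with TMM, 0 with RLE, 559 with DESeq2, 71 with voom, 1 with at least 10 counts, 0 with the replicate block, 163 on log2(TPM + 1), 17 on ranks and 0 (without primary sham replicate 1) to 217 (without primary NTY replicate 3) with 1 library left out. Genes with a lower ratio numbered 233 with DESeq2, 1 with voom, 1 among protein-coding genes, 67 on log2(TPM + 1), 3 on ranks and 0 to 6 (without primary NTY replicate 1) with 1 library left out. The cause was not tested.

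Correlations of deviations from the stage mean were -0.0140 to 0.0105 over all pairs of a primary and an MII library, with or without the same replicate number. The library method differed between the stages, so these values cannot show whether replicate numbers paired the samples. With the replicate block 3761 genes were called higher and 1381 lower in sham.

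For 122 of the named genes, up to 11 alternatives were checked. These were TMM and RLE scaling, protein-coding genes only, the replicate block, log2(TPM + 1) and each library left out. The other alternatives were not checked by gene, and some named genes, such as Cat and Gpx4, were not among the 122. Of the 122, 5 changed sign under one of these alternatives, and none of the 5 was called in the sham comparison. Calls lost or gained below are among the 122. Zp1 had a log2 ratio of -0.54 with TMM, -0.51 with RLE and -0.15 (without primary replicate 1) to 0.68 (without primary replicate 2) with 1 library left out. Tbpl2 had 8.02 with the block, 2.44 on log2(TPM + 1) and -1.85 (without primary replicate 2) to 11.25 (without primary replicate 1) with 1 library left out. Kit had 1.11 with the block, 0.61 on log2(TPM + 1) and -0.86 (without primary replicate 2) to 1.81 (without primary replicate 1) with 1 library left out, and Prdx1 had -0.12 with TMM. Kdr had 4.79 with the block, 0.54 on log2(TPM + 1) and -1.11 (without primary replicate 3) to 6.19 (without primary replicate 2) with 1 library left out. Tbpl2 without primary replicate 1 and Kdr without primary replicate 2 were called higher (adjusted p = 0.0105 and 0.0196). With 1 library left out, calls were lost for Astl (adjusted p up to 0.0821), Aurkc (0.107), Dicer1 (0.114), Dnmt1 (0.0770), H1f2 (0.111), H1f4 (0.0923), Izumo1r (0.146), Khdc3 (0.150), Map2k1 (0.103), Psmd7 (0.108), Zp3 (0.0672, without MII replicate 3), Ccnb1 (0.0559, without primary replicate 3), Krt8 (0.0554, without MII replicate 1) and Tsc1 (0.0501, without MII replicate 3). Without primary replicate 2, Cd9, Cpeb1, Dazl, Ddx4, Fgf8 and Mad2l1 were called (adjusted p = 0.00884 to 0.0338), and without primary replicate 3 Dusp1, Mad2l1 and Tut7 (0.0184 to 0.0478). With the replicate block calls were lost for Dicer1, Dnmt1, H1f2, H1f4, Izumo1r, Junb, Khdc3, Map2k1, Neat1, Psmd7 and Zp3 (0.0526 to 0.204) and gained for Dusp1 and Mad2l1 (0.0344 and 0.0329). With TMM they were lost for Aurkc, Dnmt1, Izumo1r, Khdc3 and Map2k1 (0.0597 to 0.296) and with RLE for Dnmt1 and Map2k1 (0.142 and 0.349). The log2 ratio of the summed share of the blood and immune list ranged from -2.71 (without MII replicate 2) to 4.92 (without primary replicate 1). That of the mitochondrial genome was 3.54 over its 15 genes. It was 8.97 as a share of protein-coding counts, where only the 13 mRNAs enter and the 2 ribosomal RNAs are left out.

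Primary libraries spread more than MII libraries, with common dispersions of 1.99 and 0.251 when each stage was fitted alone.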
